A study of Mus musculus with 2 samples.

Results

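The nuclear genes of the last steps of oxidative phosphorylation were followed in mouse embryonic fibroblasts sorted by how far a channel of the inner mitochondrial membrane, the permeability transition pore (mPTP), was open. The 37 genes were chosen by name: 9 subunits of complex III, the electron carrier gene Cycs, 11 subunits of complex IV, 15 subunits of the ATP synthase and its inhibitor gene Atpif1. All 37 were found among the 23084 gene symbols of the deposited table, each in 1 row, and all 37 were among the 11898 measured genes, those whose mean reached 1 FPKM. FPKM is a read count per kilobase of exon, scaled by the depth of the library.

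Both groups were fibroblasts of ICR mouse embryos, loaded with the dye calcein and with cobalt chloride and divided on a cell sorter. Cobalt quenches calcein wherever it can reach it, so cells that stay bright hold the dye in mitochondria whose pores are closed. The dim cells formed the high mPTP opening group and the bright cells the low mPTP opening group, with 1 library each. No genotype or drug separates the groups, and no label says how many embryos, cultures or sorts stand behind a library. A single library stood for each group, so no test was run and every value describes these libraries only. In bulk RNA, fewer cells of a kind and less RNA per cell cannot be told apart. The steps between FPKM values correspond to about 16400000 reads behind the high and 15100000 reads behind the low mPTP opening library. All 9 fibroblast markers were measured, and they differed both ways: 6 were higher and 3 lower in the high mPTP opening library, from Dcn at 98.9 against 175 FPKM to Thy1 at 81.7 against 56.6 FPKM. Their summed level, 6181 against 6248 FPKM, was mostly that of Col1a1 and Col1a2. The macrophage markers summed to 449 against 928 FPKM and all 12 lay lower in the high mPTP opening library. Markers of Schwann cells summed to 1.21 against 12.2 FPKM and those of mesothelium to 14.6 against 33.7 FPKM. Of 8 smooth muscle and pericyte markers, Acta2 (1953 against 1166 FPKM), Myh11, Actg2 and Cnn1 were higher in the high mPTP opening library, whereas Abcc9, Kcnj8, Notch3 and Rgs5 were lower. The part of these other cells in the results on the 37 genes was not tested.

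Complex III passes electrons from ubiquinol to cytochrome c, complex IV passes them from cytochrome c to oxygen, and both pump protons out of the matrix. The ATP synthase lets the protons return through a ring of c subunits in the inner membrane, which turns a central shaft inside the F1 head, where ATP is made, while a peripheral stalk holds the head still. Some subunits of these complexes are encoded in mitochondrial DNA and all the others in the nucleus. The ATP synthase has been proposed as a source of the mPTP itself, which is under debate, and cytochrome c released from mitochondria starts apoptosis.

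The 37 genes lay close together in the libraries, and they did not move as a block. None of the 37 was 1.5-fold or more apart on the log2(FPKM + 1) scale used for all differences here. Of the 11898 measured genes 5.92% were, 1.54% upward and 4.38% downward. By a smaller limit of 0.32 on the log2 scale, Cycs and Atp5b were above it and Uqcr11 was below it, so 3 of 37 passed, beside 19.9% of measured genes (6.59% upward and 13.3% downward). The shares over measured genes by either limit are not matched for level. Of the measured protein-coding genes 3969 have a mean of 1 to 5 FPKM, where only 2 members lie, so these shares do not set the members apart from genes of their level. The median difference of the 37 genes was 0.01, beside -0.02 over all measured genes, with 20 genes positive and 17 negative, beside 45.4% and 54.6% of all measured genes. The share of positive genes depends on level. Of measured protein-coding genes it was 36.8% with a mean of 1 to 5 FPKM and 50.6% from 10 to 30 FPKM, where 8 members lie. It was 59.4% both from 30 to 100 FPKM, where 22 lie, and from 100 FPKM, where 5 lie. The members' 54.1% lies between the shares of these 3 classes, so it is no excess over genes of their level. Exact 95% intervals of the FPKM ratio, which cover counting error only and leave out variation between cultures and sorts, lay above 1 for 13 genes and below 1 for 7, and included 1 for 17. Over 11884 measured genes with recovered reads 46.8% of intervals left out 1, with 20.4% above and 26.4% below, and this share depends on how many reads a gene has. The direction of small differences depends on scaling: bringing both libraries to a sum of 1000000 adds 0.12 to each log2 ratio, and then 28 of 37 differences were positive with 18 intervals above 1 and 2 below, those of Uqcr11 and Cox7a2l.

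**Figure D1:**
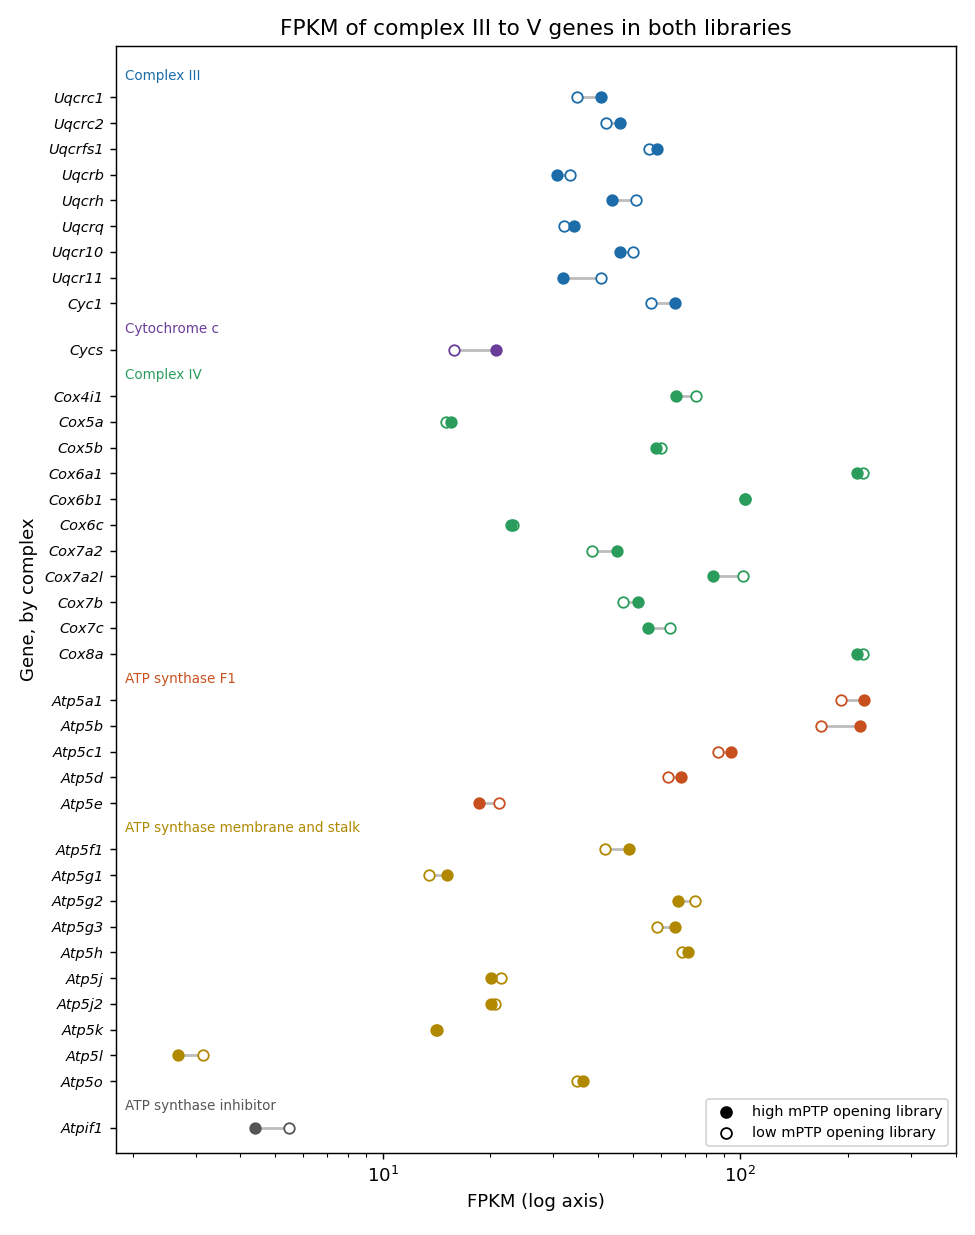
Level of each of the 37 genes (FPKM, log axis) by complex, with filled points for the high and open points for the low mPTP opening library. Points of a gene lie close together while genes spread widely, between 2.68 FPKM for Atp5l and 222 FPKM for Atp5a1 in the high mPTP opening library.

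Within complex III the large subunits were higher and most small subunits lower in the high mPTP opening library. Uqcrc1, which encodes the first core protein, was at 40.7 against 34.9 FPKM (ratio 1.16, 1.10 to 1.23). Uqcrc2, for the second core protein, was at 46.2 against 42.1 FPKM (ratio 1.10, 1.03 to 1.17). The core proteins form the part of the complex that reaches into the matrix. Cyc1, the gene of cytochrome c1, which hands electrons to cytochrome c, was at 65.5 against 56.4 FPKM (ratio 1.16, 1.09 to 1.23). Uqcrfs1, for the Rieske iron-sulfur protein, was at 58.5 against 55.6 FPKM, and its interval, 0.972 to 1.14, included 1. The other 5 genes encode small accessory subunits, and 4 of them had a negative difference, although under a common sum those of Uqcrb and Uqcr10 were slightly positive. Uqcr11 was at 31.9 against 40.8 FPKM (ratio 0.782, 0.674 to 0.907), and it was the furthest below 1 of all 37 genes. Uqcrh, the hinge protein gene, was at 43.7 against 51.3 FPKM (ratio 0.853, 0.778 to 0.936). Uqcrb was at 30.8 against 33.4 FPKM and Uqcr10 at 46.2 against 50.3 FPKM, while Uqcrq was at 34.4 against 32.2 FPKM, and their intervals included 1. Windows are shared with other genes for Uqcrc2 (24.8%), Uqcrb (43.4%), Uqcrh (7.83%) and Uqcr11 (10.9%), and for no other complex III gene. The median of the 9 subunit genes was 0.07 and their summed levels were 398 against 397 FPKM, so higher and lower members offset each other.

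Cytochrome c and the beta subunit of the ATP synthase had the highest differences, 0.37 for Cycs and 0.36 for Atp5b, and which of them led depended on the pseudocount and the scaling. Cycs was at 20.7 FPKM in the high and 15.8 FPKM in the low mPTP opening library, a ratio of 1.31 (1.19 to 1.43). The gene (chromosome 6, 50562563 to 50566538 in mm10) has close relatives: 28.5% of the 50-base windows of its main transcript occur in transcripts of 76 other genes, so its reads may be shared with them. The testis form, Cyct, was listed at 0 in the high mPTP opening library, against 0.203 FPKM in the low mPTP opening library, which is 2 reads.

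Complex IV genes had a median difference of -0.05 with FPKM as deposited, but 0.03 when libraries were scaled by a trimmed mean and 0.07 when they were brought to a common sum. Of 11 genes 4 had a positive difference. Intervals lay below 1 for Cox4i1, the subunit that binds ATP as a regulator, at 66.0 against 75.4 FPKM (ratio 0.874, 0.817 to 0.935), and for Cox7c, at 55.1 against 63.5 FPKM (ratio 0.868, 0.796 to 0.946). They lay above 1 for Cox7a2, at 45.1 against 38.5 FPKM (ratio 1.17, 1.04 to 1.31), and for Cox7b, at 51.8 against 46.9 FPKM (ratio 1.10, 1.01 to 1.21). The most abundant genes of the complex hardly differed, with Cox6a1 at 212 against 220 FPKM, Cox8a at 212 against 220 FPKM and Cox6b1 at 103 against 103 FPKM. Cox5a was at 15.5 against 15.0 FPKM, Cox5b at 58.0 against 60.1 FPKM and Cox6c at 22.9 against 23.1 FPKM, and their intervals included 1 too. Of the genes with an interval clear of 1, Cox7c shares 53% of its windows.

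Cox7a2 and Cox7a2l, which are related in sequence, differed in opposite directions. Cox7a2 encodes the widely expressed form of subunit 7a, and Cox7a2l encodes a factor that joins complexes III and IV into supercomplexes. Cox7a2l was at 84.0 against 102 FPKM, which gives 0.826 (0.778 to 0.878) as the ratio. Its share of the summed FPKM of the Cox7a genes was 64.9% in the high against 71.7% in the low mPTP opening library, and that of Cox7a2 was 34.8% against 27.2%. Cox7a2l shares 19.8% of its windows with the pseudogene Gm6969, listed at 38.4 against 43.5 FPKM, whereas Cox7a2 shares none. The reads of Cox7a2l did not come out whole, so its interval is approximate.

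Forms of complex IV subunits made mainly in other tissues were scarce in both libraries. Cox6b2, the testis form of subunit 6b, was at 2.26 against 6.05 FPKM, which gives 0.373 (0.253 to 0.542) as the ratio. Cox6a2, a heart and skeletal muscle form, was at 0.898 against 2.05 FPKM (10 against 21 reads). Cox7a1, another muscle form, was at 0.342 against 1.49 FPKM (3 against 12 reads) and had a mean under 1 FPKM. Cox4i2, the form of subunit 4 known for its part in oxygen sensing, had 13 against 4 reads, and its interval, 0.923 to 12.6, included 1. The main forms Cox4i1, Cox6a1 and Cox6b1 each held at least 94.4% of the summed FPKM of their pair in both libraries.

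Among complex III, complex IV, F1, and membrane and stalk genes, the F1 head of the ATP synthase had the highest median, 0.13, and 4 of its 5 genes had intervals above 1. Atp5b, which encodes the catalytic beta subunit (chromosome 10, 128083273 to 128090391 in mm10), was at 217 against 168 FPKM (ratio 1.29, 1.26 to 1.32). It rests on 15053 against 10746 reads, and 0.857% of its windows occur elsewhere. Atp5a1, the alpha subunit, which alternates with beta around the head, was at 222 against 191 FPKM (ratio 1.16, 1.13 to 1.19). The central shaft differed within itself. Atp5c1 for subunit gamma was at 94.4 against 86.5 FPKM (ratio 1.09, 1.03 to 1.15) and Atp5d for subunit delta at 68.4 against 62.6 FPKM (ratio 1.09, 1.03 to 1.16). Atp5e, the gene of the small epsilon subunit, was at 18.6 against 21.1 FPKM (ratio 0.883, 0.783 to 0.996), and that interval included 1 after scaling by the median ratio, by the trimmed mean or to a sum of 1000000. Summed over the 5 genes the level was 620 FPKM in the high against 530 FPKM in the low mPTP opening library, and most of this difference came from alpha and beta, at 439 against 360 FPKM.

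Membrane and stalk genes had a median difference of 0.03 and their summed level was 362 against 352 FPKM. In the peripheral stalk, Atp5f1 for subunit b was at 48.9 against 42.0 FPKM (ratio 1.17, 1.11 to 1.23), although 38.7% of its windows are shared. Atp5o, for the protein OSCP that caps the stalk and that cyclophilin D is known to bind, was at 36.4 against 35.1 FPKM (0.955 to 1.13). Atp5h for subunit d was at 71.3 against 68.7 FPKM and Atp5j for factor 6 at 20.1 against 21.4 FPKM. Of the small membrane subunits, Atp5j2 for subunit f was at 20.04 against 20.63 FPKM, Atp5k for subunit e at 14.2 against 14.1 FPKM and Atp5l for subunit g at 2.68 against 3.15 FPKM. The intervals of all 5 of these last genes included 1, as did that of Atp5o, which shares 50.3% of its windows. The median of the F1 genes exceeded that of the membrane and stalk genes by 0.10 on the log2 scale, and by 0.07 to 0.12 over all alternatives but 1. That exception kept only genes with no shared window, which left 2 F1 genes, Atp5d and Atp5e, and gave -0.19. Several alternatives shift all genes nearly alike or leave each value as it was, so they could hardly change this gap. The gap was absent among genes under 600 coding bases, with medians of -0.022 for 2 F1 genes and -0.017 for 8 membrane and stalk genes. For longer genes the medians were 0.21 for 3 F1 genes and 0.13 for 2 membrane and stalk genes.

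**Figure D2:**
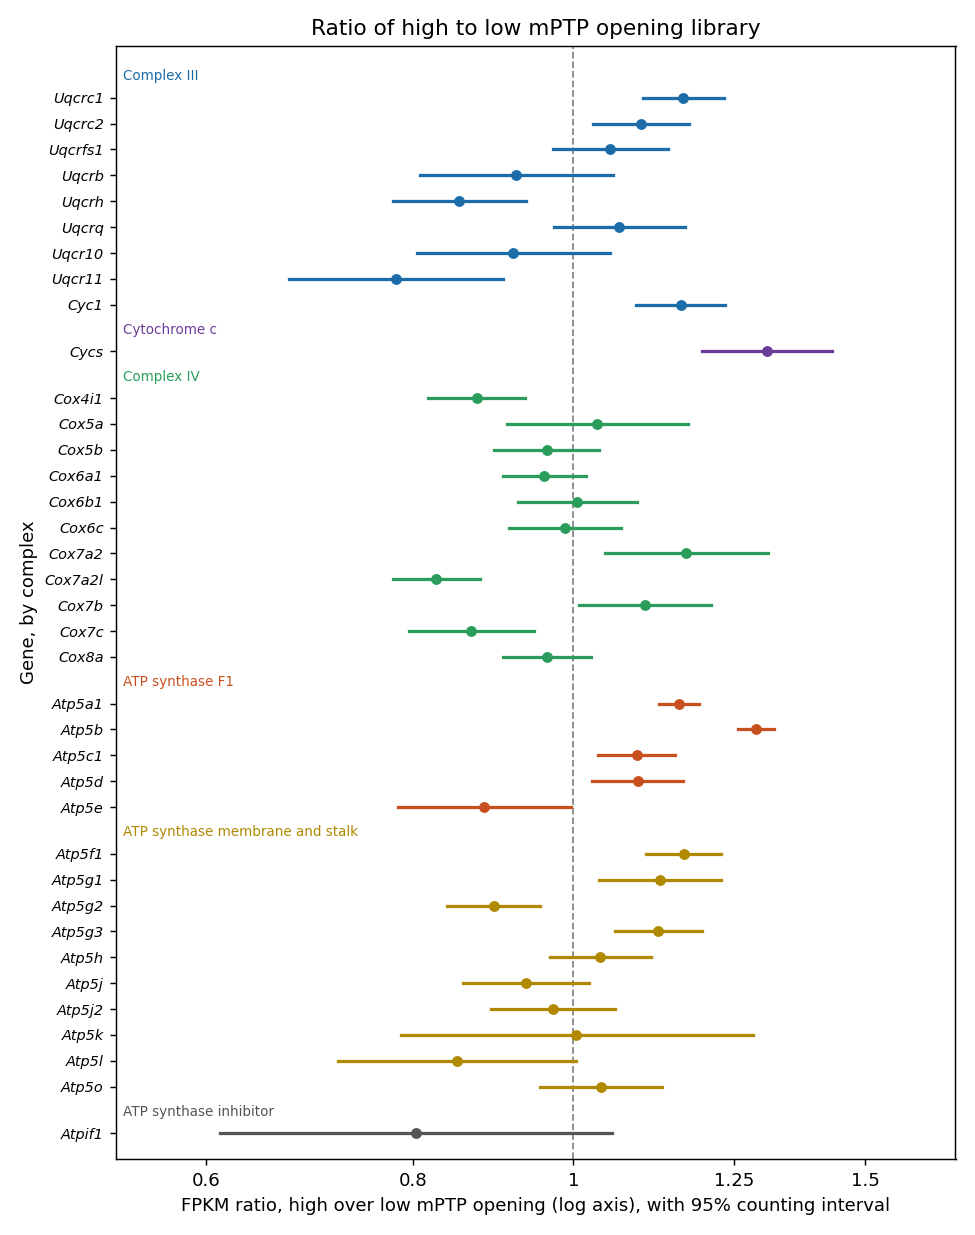
Ratio of FPKM, high over low mPTP opening library (log axis), for the 37 genes by complex, with bars for the exact 95% interval of counting error and a dashed line at 1. Bars of 13 genes lie above 1, led by Cycs at 1.31 and Atp5b at 1.29, and bars of 7 genes lie below 1, led by Uqcr11 at 0.782.

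The c subunit of the membrane ring is encoded by Atp5g1, Atp5g2 and Atp5g3, whose proteins differ in the targeting peptide that is cut off on import and not in the mature chain. They divided differently between the libraries although their sum was close, at 148 against 147 FPKM. Atp5g1 was at 15.2 against 13.4 FPKM (ratio 1.13, 1.04 to 1.23) and Atp5g3 at 65.9 against 58.5 FPKM (ratio 1.13, 1.06 to 1.20). Atp5g2 was at 66.9 against 74.8 FPKM (ratio 0.895, 0.839 to 0.955). The share of Atp5g2 was 45.2% in the high against 50.9% in the low mPTP opening library, and the share of Atp5g3 was 44.5% against 39.9%. These shares depend on the length used, because FPKM divides by all exon bases, 4912 for Atp5g1 beside 596 in its main transcript. Scaled to the main transcript alone, Atp5g1 was at 125 against 111, Atp5g2 at 254 against 284 and Atp5g3 at 201 against 179. On that scale Atp5g1 holds a larger part of the sum and Atp5g3 a smaller one. The genes can be told apart in their coding sequence. The last 60 coding bases of the main transcript, without the stop codon, are shown from the reference transcripts (GENCODE M21), with capitals at bases that differ from Atp5g1.
Atp5g1: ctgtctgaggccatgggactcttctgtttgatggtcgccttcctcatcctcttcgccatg
Atp5g2: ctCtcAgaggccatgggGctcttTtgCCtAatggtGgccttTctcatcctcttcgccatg
Atp5g3: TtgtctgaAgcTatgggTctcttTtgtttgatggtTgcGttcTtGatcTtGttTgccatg
In this stretch Atp5g2 differs from Atp5g1 at 9 bases and Atp5g3 at 12. Over the last 225 coding bases, Atp5g1 and Atp5g2 were identical at 84.9% with no identical run above 20 bases, and Atp5g3 was identical to Atp5g1 at 80.0%. Pseudogenes are closer: all windows of the main transcript of Atp5g2 also occur elsewhere, among them in Gm10175, which was listed at 24.8 against 20.7 FPKM. With Gm10175 counted as a separate gene, the share of Atp5g2 was 38.7% against 44.7%. The share of Gm10175 itself was 14.4% against 12.4%, in the opposite direction. Reads may be divided between Atp5g2 and Gm10175, so the size of the Atp5g2 difference is uncertain. Atp5g3 shares no window, and Atp5g1 shares 66.0% of its own.

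**Figure D3:**
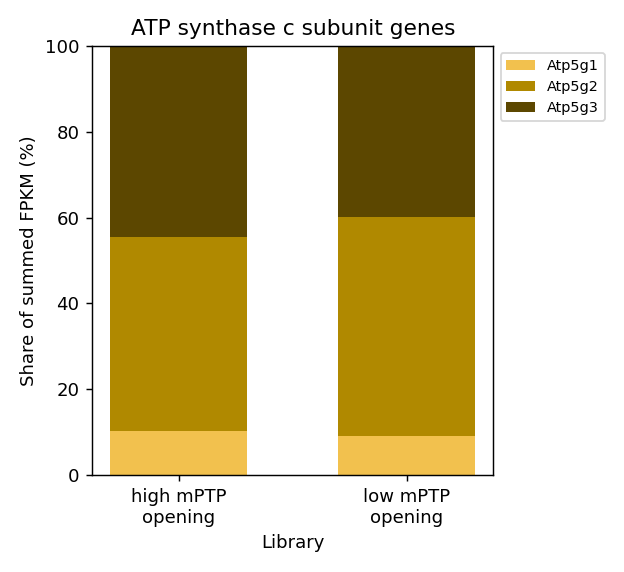
Share of each c subunit gene in their summed FPKM (%), as stacked bars for the high and the low mPTP opening library. Atp5g2 holds 45.2% in the high against 50.9% in the low mPTP opening library, and Atp5g3 holds 44.5% against 39.9%. FPKM divides by all exon bases of a gene, and the shares differ when levels are scaled to the main transcript alone.

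Atpif1, the gene of the protein that stops the ATP synthase from running backwards, was at 4.41 against 5.48 FPKM (ratio 0.804, 0.612 to 1.05). It rests on 104 against 119 reads, too few to show a difference of this size. The antisense gene Gm12999 covers 33.7% of its exon bases, and whether counting used strand is not given in the sources used here.

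With FPKM as deposited, the longest members all pointed upward, whereas the shorter ones went both ways. All 9 members with at least 600 coding bases were higher in the high mPTP opening library: Uqcrc1, Uqcrc2, Uqcrfs1, Cyc1, Atp5a1, Atp5b, Atp5c1, Atp5f1 and Atp5o. Their median difference was 0.21 and 7 of the 9 intervals lay above 1. Of the 28 shorter members 11 were positive, with a median of -0.05. The limit of 600 bases was chosen after the values were seen, and it gets no test. Over the 37 genes, which share both libraries, Pearson's correlation of the difference with log2 coding length was 0.59 and Spearman's was 0.51. It was 0.83 (Pearson) over the 9 complex III genes, 0.78 over the 15 ATP synthase genes and -0.21 over the 11 complex IV genes, all of which are short. Over all 11088 measured protein-coding genes it was 0.07.

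Coding length classes of all genes differed less, and level classes differed more than length classes. Measured protein-coding genes with under 300 coding bases had a median difference of -0.05, and those with 1200 or more had -0.02. By level, the median of measured protein-coding genes was -0.08 from 1 to 5 FPKM and 0.05 from 30 to 100 FPKM. Among protein-coding genes whose mean reached 10 FPKM, 54.9% of those with 600 or more coding bases and 47.0% of the shorter ones were positive. When each difference was centred on the median of its coding length class, the medians were 0.10 for complex III, -0.00032 for complex IV, 0.16 for F1 and 0.07 for membrane and stalk genes. A similar ordering appeared in complex I, where 8 of 10 nuclear subunit genes of at least 600 coding bases and 11 of 25 shorter ones were positive. What links length and direction was not tested.

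**Figure D4:**
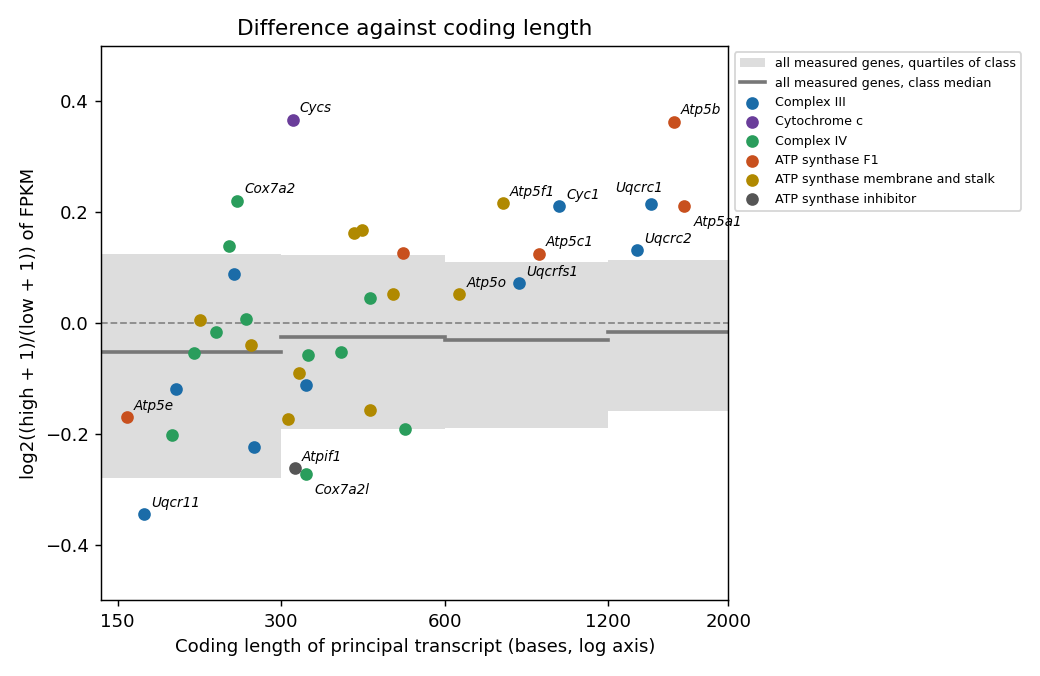
Difference between libraries, log2((high + 1)/(low + 1)) of FPKM, against the coding length of the main transcript (bases, log axis) for the 37 genes by colour of complex, over the median and quartiles of all measured protein-coding genes in 4 length classes. All 9 members at 600 or more bases lie above 0, and 11 of the 28 shorter ones do.

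The order of levels was nearly the same in both libraries, with a Spearman correlation of 0.98 over the 37 genes, which share both libraries, but it depends on the length used. On the FPKM scale, which divides by all exon bases of a gene, Cyc1 was the highest complex III gene in both libraries. Scaled to the main transcript alone, Uqcrq was the highest, at 155 against 146 on the same scale. Atp5l shows how much the length matters. It was at 2.68 against 3.15 FPKM over 6443 exon bases, and at 31.8 against 37.3 over the 544 bases of its main transcript, and 84.8% of its windows are shared with 14 other genes. Atp5b was the highest ATP synthase gene on the second scale, at 480 against 372, whereas Atp5a1 was the highest on the first. In complex IV, Cox8a and Cox6a1 were within 1 FPKM of each other at the top in both libraries, and Cox5a was the lowest on the FPKM scale.

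No measured gene of the assembly lists was 1.5-fold apart. Lyrm7, a complex III assembly gene with a mean under 1 FPKM, was at 0.543 against 0.185 FPKM (ratio 2.94, 1.59 to 5.83), on 45 against 14 reads. Of 6 measured complex III assembly genes 0 passed 1.5-fold and the median was 0.04, with Uqcc2, needed to make cytochrome b, at 23.3 against 28.1 FPKM (0.712 to 0.970), Bcs1l, which inserts the Rieske protein, at 6.52 against 5.36 FPKM, and Hccs, which attaches haem to cytochromes c, at 6.91 against 7.62 FPKM. Of 21 measured complex IV assembly genes 0 passed it and the median was -0.03, with Cmc1 at 6.53 against 9.32 FPKM (0.551 to 0.890), Coa7 at 3.01 against 2.03 FPKM (1.17 to 1.88) and Cox18, which inserts part of subunit 2 into the membrane, at 6.60 against 4.97 FPKM (1.11 to 1.60). The ATP synthase factors had a median of -0.09 over 6 genes. Among them Tmem70, which helps to build the c ring, was at 28.7 against 23.5 FPKM (1.10 to 1.35), Fmc1 at 3.72 against 5.11 FPKM (0.474 to 1.11) and Atp5s at 4.77 against 5.72 FPKM (0.666 to 1.04).

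Additional subunits that the list of 37 does not hold were also compared. The medians and sums given above for the complexes and their parts do not include them. Ndufa4, now counted with complex IV, was at 72.6 against 69.7 FPKM (0.969 to 1.12). Usmg5, a small membrane subunit of the ATP synthase, was at 66.6 against 83.9 FPKM (ratio 0.794, 0.756 to 0.834), and 2010107E04Rik, named Atp5mpl in RefSeq and also a small ATP synthase subunit, was at 82.8 against 91.1 FPKM (0.848 to 0.973). The gene 1810037I17Rik was at 24.7 against 25.9 FPKM (0.837 to 1.09). No role is given here for the last of these.

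Complexes I and II, which feed electrons into complex III, were compared the same way. The 35 measured nuclear genes of complex I had a median of 0.02, with 0 past 1.5-fold. They were led by Ndufa1 at 24.9 against 33.4 FPKM, Ndufs1, the largest subunit, at 10.5 against 8.40 FPKM, and Ndufs4 at 19.2 against 23.6 FPKM. Complex II and its assembly genes had a median of 0.16 over 7 genes, with its flavoprotein Sdha at 61.4 against 53.2 FPKM (1.10 to 1.21), Sdhaf3 at 1.23 against 0.951 FPKM and Sdhaf4 at 4.75 against 6.46 FPKM. Partners encoded in mitochondrial DNA were all negative, but only mt-Cytb and mt-Co1 had intervals clear of 1. The cytochrome b gene of complex III, mt-Cytb, was at 3310 against 3761 FPKM, a ratio of 0.880, and the catalytic subunit gene of complex IV, mt-Co1, was at 6883 against 7296 FPKM, a ratio of 0.943. The shift of 0.12 under a common sum is larger than the mt-Co1 difference of -0.08 and smaller than the mt-Cytb difference of -0.18. The genes mt-Co2 at 4.37 against 6.02 FPKM, mt-Co3 at 0.545 against 1.02 FPKM, mt-Atp6 at 2.69 against 3.51 FPKM and mt-Atp8 at 4.19 against 5.53 FPKM lay far below mt-Cytb and mt-Co1 although all are read from mitochondrial DNA, with 49 reads at most in the high mPTP opening library, so their levels are uncertain.

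**Figure D5:**
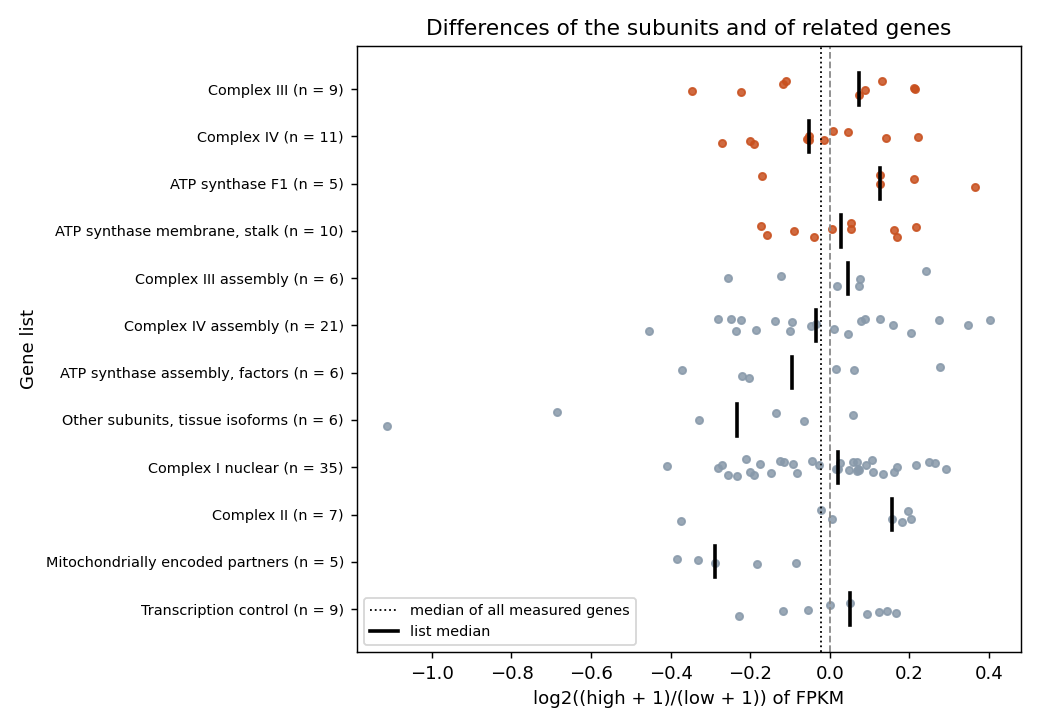
Difference between libraries, log2((high + 1)/(low + 1)) of FPKM, of each measured gene (points) in the subunit groups (orange) and in lists of related genes (grey), with a bar at each list's median and a dotted line at the median of all measured genes, -0.02. F1 has the highest median of the subunit groups, 0.13, and the mitochondrially encoded partners have the lowest of all lists shown, -0.29. That lowest median is the value of mt-Atp6, which rests on 30 against 36 reads with an interval of 0.456 to 1.28.

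Of 9 measured regulators of these genes 0 passed 1.5-fold, and the median was 0.05. Esrra, an orphan nuclear receptor that drives respiratory genes, was at 5.44 against 6.54 FPKM (0.722 to 0.954), and Tfam, which packages and transcribes mitochondrial DNA, was at 8.12 against 7.12 FPKM (1.01 to 1.29). Gabpb1, a subunit of the ETS-family factor GABP, was at 4.20 against 3.71 FPKM (0.995 to 1.29). Nuclear respiratory genes are known targets of NRF1 and GABP.

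Promoters of the members furthest apart are shown because they lie at opposite ends of the differences, with Cycs and Atp5b highest and Uqcr11 lowest. Each is the 250 bases before the annotated start, 5′ to 3′ on the strand of the gene, from RefSeq (GRCm38.p6). Capitals mark exact matches, on either strand, to the NRF1 core GCATGCGC, the ETS motif CCGGAAG, the cAMP response element TGACGTCA and the CCAAT box.
Cycs, chr6:50566570-50566819, minus strand: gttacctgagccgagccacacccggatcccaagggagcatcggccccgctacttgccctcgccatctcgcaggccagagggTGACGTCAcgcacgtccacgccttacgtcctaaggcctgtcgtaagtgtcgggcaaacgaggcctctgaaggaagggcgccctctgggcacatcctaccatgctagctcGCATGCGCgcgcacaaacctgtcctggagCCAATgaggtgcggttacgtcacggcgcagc
Atp5b, chr10:128083057-128083306, plus strand: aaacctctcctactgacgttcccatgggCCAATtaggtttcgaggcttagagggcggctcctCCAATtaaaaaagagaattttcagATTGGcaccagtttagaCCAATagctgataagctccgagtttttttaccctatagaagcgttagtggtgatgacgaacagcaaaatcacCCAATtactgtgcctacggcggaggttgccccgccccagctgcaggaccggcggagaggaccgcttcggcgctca
Uqcr11, chr10:80406822-80407071, minus strand: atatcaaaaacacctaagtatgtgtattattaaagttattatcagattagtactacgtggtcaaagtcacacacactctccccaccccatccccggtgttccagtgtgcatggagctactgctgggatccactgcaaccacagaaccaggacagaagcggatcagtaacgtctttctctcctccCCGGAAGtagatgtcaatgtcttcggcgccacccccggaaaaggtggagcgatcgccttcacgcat
The Cycs window held a cAMP response element, the NRF1 core and a CCAAT box, the Atp5b window held CCAAT boxes and the Uqcr11 window held an ETS motif. Promoters in that table were matched for 29 of the 37 genes. The NRF1 core was found in 5 of 29 (17.2%), against 2.26% of all promoters of the same length, and the ETS motif in 8 of 29 (27.6%), against 6.91%. The cAMP response element was found in 2 of 29, Cycs and Uqcrfs1, against 1.55% of all promoters, and CCAAT in 15 of 29 (51.7%), against 33.8%. Among measured protein-coding genes with a promoter in the table, 5.30% held the NRF1 core, 16.4% the ETS motif, 3.16% the cAMP response element and 40.7% CCAAT. Matched members with the NRF1 core had a median difference of -0.058, against 0.026 without it, and for ETS it was -0.13 against 0.053. For the cAMP response element it was 0.22 against -0.040 and for CCAAT 0.0074 against -0.023. A link between motif and direction was not tested. The motifs were settled after a first search, and the NRF1 core was chosen because Cycs, a member, lacked a longer form. The shares in members are therefore a description and no support for an excess. A match is a description of these letters and says nothing about binding.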

How the data were processed

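RNA was taken with TRIzol and made into libraries with a TruSeq kit, per the labels' protocols. The authors' deposited file gives FPKM per gene for both libraries, on mm10. TopHat2 2.0.12 and Bowtie2 2.2.3 were used, per the submitters' processing notes. No source used here gives the counting tool, the annotation or the strand setting. Reads of overlapping genes, paralogs and pseudogenes may be shared.

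FPKM times exon length (GENCODE M21, in which 99.6% of identifiers were found) gave whole multiples of 1 step per library. Of genes with up to 20 reads, 93.4% in the high and 93.1% in the low mPTP opening library were whole within 0.05 reads (85.5% and 85.7% of all genes). Of the 37 members 32 came out whole, and the intervals of the other 5 (Cyc1, Cox5b, Cox7a2l, Cox8a, Atp5o) use rounded reads. Intervals are exact Clopper-Pearson intervals at 95%, given the sum of both libraries' reads. PCR copies are not independent molecules.

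Differences are log2((high + 1)/(low + 1)), a scale that understates low genes, and ratios are of plain FPKM. Where a symbol had several rows, they were summed. The main transcript is the best ranked APPRIS transcript. Shared windows are exact 50-base matches, on either strand, to a transcript of another gene. Named genes are all members, the measured other subunits, the mitochondrially encoded partners and up to 3 genes per list with the largest differences. Cyct, Cox4i2, Cox7a1, Lyrm7, Gm6969, Gm10175, Gm12999 and the marker genes were named outside this rule after their values were seen. The motifs were settled after a first search: the NRF1 motif was shortened to its core because Cycs lacked the longer form, a YY1 motif was dropped, and the cAMP response element and CCAAT were added. Members and lists were chosen with earlier results of these data known. Scripts were tested on simulated data. Computation used SciPy 1.17.1, pandas 2.3.3 and NumPy 2.4.6 in Python 3.11.15, and plots used matplotlib 3.10.9.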

Additional observations from a re-analysis of the deposited data

How the results depend on the processing

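The medians of complex III, complex IV, ATP synthase, F1, and membrane and stalk genes, the F1 minus membrane difference, the count of positive members and the count past 1.5-fold were recomputed under pseudocounts of 0.1 and 5 FPKM, 4 scalings, 2 other filters on the mean, the highest row of each symbol, centring on exon length class, and without the furthest member of each group. Centring on coding length class, members without a shared window, and members with under 10% of windows shared were chosen after seeing the data. Of these values 101 kept their sign and moved little, by less than 0.12 for medians (the median distance between a ratio and its counting limits) and by less than 1.5 times for counts. Part of these could not move. All 37 members passed the filter of 1 FPKM and each had 1 row, so leaving out the filter or taking the highest row returned every value unchanged. The number 101 is therefore no measure of how firm the results are.

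The exceptions were these. Scaling by a trimmed mean turned the complex IV median to 0.028. Scaling to a sum of 1000000 turned it to 0.070 and moved the medians of complex III to 0.19, ATP synthase to 0.18 and F1 to 0.25. Members without a shared window gave 0.0074 for complex IV, -0.022 for F1, 0.17 for membrane and stalk, -0.19 for F1 minus membrane and stalk, and 8 positive of 11 members. Members with under 10% of windows shared gave 0.074 for complex IV and 13 positive of 18 members. A limit of 0.32 on the log2 scale called 3 members and 2-fold called 0. The cause of each change was not tested, other than fewer members.

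Of the 13 intervals above 1, all 13 stayed above under each of the 4 scalings, and the trimmed mean gave 17 above and a sum of 1000000 gave 18. That outcome was nearly fixed in advance. Scaling by the median ratio, by the trimmed mean and to a sum of 1000000 adds 0.027, 0.081 and 0.12 to each log2 ratio. The sum over nuclear protein-coding rows adds only -0.0056, so no scaling put these 13 to a real trial. Of the 7 below, 6, 4, 2 and 7 stayed below after scaling by the median ratio, by the trimmed mean, to a sum of 1000000 and to a sum over nuclear protein-coding rows; Uqcr11 and Cox7a2l were the 2, and Atp5l joined those below under the last. Leaving out members whose reads were not whole removes Cyc1 from those above 1 and Cox7a2l from those below. No paired analysis was possible because each group has 1 library. Depth limits Atpif1, Atp5k and the tissue forms most.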
